A study of Homo sapiens with 6 samples.

Results

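Reactive oxygen is made and removed by a small set of enzymes, and 10 of their genes were examined in SUM-159 cells, a triple-negative breast cancer line, labelled as transfected with SH3GL2 (endophilin A1, a membrane-bending adaptor of endocytosis). The genes were CYBA, SOD1, SOD2, CAT, GPX1, GPX4, PRDX1, PRDX3, GSTP1 and TXN, taken as every probe set of the array annotated to one of them. This gave 17 of 22215 probe sets. Of the 10 genes, 9 were among the 11963 that had a probe set of their own, and SOD2 had only shared ones. RNA from 3 arrays of cells stably transfected with an SH3GL2 insert in the pcDNA 3.1 vector was compared with RNA from 3 arrays of cells carrying the empty vector, and both lines were kept in G418. The labels and methods do not say whether the triplicates were separate cultures, nor whether each line was 1 clone or a pool, so the tests measure only the spread between these arrays. All values are log2 signals of Affymetrix oligonucleotide arrays, on which a difference of 1 is a doubling.

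Superoxide is produced at membranes by NADPH oxidases, in which the p22phox subunit encoded by CYBA stabilizes the catalytic NOX protein. Superoxide dismutases turn it into hydrogen peroxide, SOD1 in the cytosol and SOD2 in the mitochondrial matrix. Catalase, glutathione peroxidases and peroxiredoxins then remove peroxide, with thioredoxin (TXN) regenerating the peroxiredoxins and the glutathione transferase GSTP1 joining glutathione to reactive electrophiles. The study altered SPANXB1, a gene it placed downstream of SH3GL2, in breast cell lines other than SUM-159 and measured reactive oxygen there. It reported less reactive oxygen with SPANXB1 silenced and more with SPANXB1 overexpressed. The SUM-159 arrays allow the question of whether transcripts of these enzymes differed with SH3GL2.

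Of the 10 genes, 3 were higher in the SH3GL2 cells and 7 did not pass the test, while over the array 1.99% of probe sets were higher and 2.18% lower. The SOD2 signal was higher on all 4 of its probe sets, CYBA by 1.48-fold and GSTP1 by 1.25-fold. SOD1, catalase, both glutathione peroxidases, both peroxiredoxins and thioredoxin showed differences between -0.23 and 0.09 on the log2 scale. In RNA from whole cultures, a higher level in every cell and a larger share of high cells cannot be told apart.

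The promoters of the 3 higher genes are shown as the stretch from 250 bases before to 50 bases after the annotated start, because these are the members whose signals were higher. Capitals mark the core of the antioxidant response element (TGACNNNGC, or GCNNNGTCA on the other strand), which the stress factor NRF2 is known to bind, and the GC box (GGGCGG or CCGCCC), which SP1 is known to bind; overlapping matches run together. Sequences are those of RefSeq on GRCh38.p14, 5′ to 3′ on the strand of the gene. SOD2 has 4 annotated starts in this table, of which the one farthest downstream is printed.
CYBA, chr16:88651004-88651303, minus strand: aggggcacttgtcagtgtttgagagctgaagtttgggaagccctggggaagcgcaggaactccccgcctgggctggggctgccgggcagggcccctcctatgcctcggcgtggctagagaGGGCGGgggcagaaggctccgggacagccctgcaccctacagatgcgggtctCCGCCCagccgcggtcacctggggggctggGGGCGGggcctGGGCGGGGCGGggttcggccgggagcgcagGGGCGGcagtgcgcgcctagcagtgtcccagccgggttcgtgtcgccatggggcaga
SOD2, chr6:159693192-159693491, minus strand: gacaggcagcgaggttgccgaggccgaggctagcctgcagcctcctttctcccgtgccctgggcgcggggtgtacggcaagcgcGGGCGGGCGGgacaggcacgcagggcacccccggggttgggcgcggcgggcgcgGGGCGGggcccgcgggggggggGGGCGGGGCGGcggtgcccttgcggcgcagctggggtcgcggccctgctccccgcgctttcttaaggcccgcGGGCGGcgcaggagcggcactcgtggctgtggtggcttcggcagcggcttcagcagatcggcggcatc
GSTP1, chr11:67583562-67583861, plus strand: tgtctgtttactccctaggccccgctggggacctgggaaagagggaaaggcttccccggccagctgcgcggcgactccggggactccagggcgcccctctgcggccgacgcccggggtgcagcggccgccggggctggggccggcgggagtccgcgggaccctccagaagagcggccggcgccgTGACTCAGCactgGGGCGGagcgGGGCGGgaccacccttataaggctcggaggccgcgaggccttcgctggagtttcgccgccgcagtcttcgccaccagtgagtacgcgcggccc
The antioxidant response core occurred once in the GSTP1 window, as TGACTCAGC beginning 66 bases before the start, and in none of the other windows of these genes. Of 13 windows for the 8 genes in the table, 1 held this core, against 13.3% of all 35116 windows of the same length. The GC box was in all 13, against 45.0% of all windows. Windows of the same gene can overlap and share a match, as for GPX4, so the 13 are not independent. The GC box occurred 6 times in the CYBA window, 6 times in the printed SOD2 window and 2 times in the GSTP1 window. These matches are descriptions of the letters only.

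On the arrays as a whole, values ran from 2.82 to 15.31, with medians of 6.97 to 7.02. Pairs of arrays correlated at 0.9971 to 0.9982 inside a group and at 0.9947 to 0.9965 between the groups, as computed over probe sets rather than replicates. Among 63 probe sets for 44 genes of other organs, taken as a guide to the signal without a transcript, the median was 5.34 and the 95th percentile 7.02. Counts of probe sets above this percentile used the higher of the group means. The only SH3GL2 probe set averaged 3.26 ± 0.09 in SH3GL2 cells and 3.22 ± 0.04 in empty vector cells (SD, n = 3 each). It lay below the median of 5.34 in both and could not check the labels. The paper reports stable overexpression of SH3GL2 in SUM-159 cells. SPANXB1, which was lower in SH3GL2 cells, averaged 7.85 ± 0.20 there and 11.45 ± 0.04 in empty vector cells (SD, n = 3 each; limma adjusted p = 9.41e-11). Of 13 probe sets for markers of this mesenchymal-like line, 12 lay above the 95th percentile. In SH3GL2 cells 0 of the 13 were higher and 1 lower, against 1.99% and 2.18% of all probe sets. That one belonged to AXL, a receptor tyrosine kinase (log2 fold change -0.49, limma adjusted p = 0.00011). The other AXL probe set differed by -0.30 and did not pass (limma adjusted p = 0.0683). The part of AXL in the results was not tested. Of 16 probe sets for hormone receptor and luminal markers, 2 lay above the 95th percentile, GATA3 at 9.27 in SH3GL2 cells and 9.57 in empty vector cells and ERBB2 at 8.45 in SH3GL2 cells and 8.50 in empty vector cells. Of 15 probe sets for leukocyte and endothelial markers, 0 lay above the 95th percentile. The difference between the 3′ and 5′ control probe sets of GAPDH, a sign of RNA integrity, was 0.31 to 0.33 in SH3GL2 arrays and 0.32 to 0.37 in empty vector arrays, and that of beta-actin was 2.03 to 2.25 in SH3GL2 arrays and 2.12 to 2.21 in empty vector arrays.

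**Figure D1:**
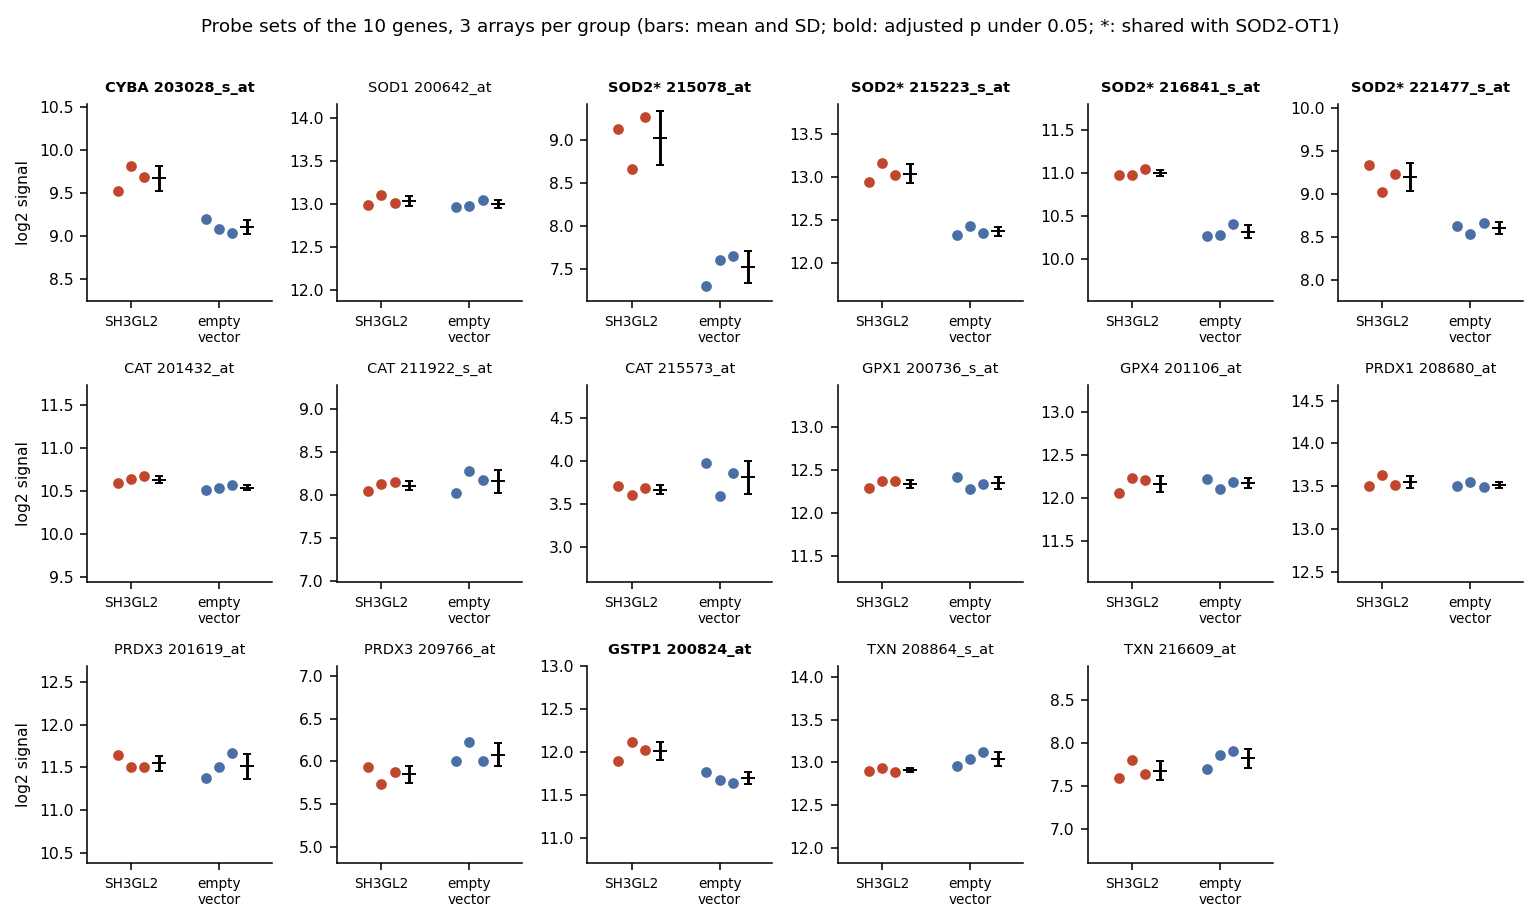
Log2 signal of the 17 probe sets in SH3GL2 (left, red) and empty vector (right, blue) arrays, with 1 point per array in replicate order and bars for mean and SD (n = 3); every panel spans the same number of log2 units. The 4 SOD2 panels, CYBA, GSTP1 and CAT 201432_at show all 3 SH3GL2 points above all 3 empty vector points, as did 10.5% of all probe sets. The SOD1, GPX1, GPX4 and PRDX1 points overlap between the groups.

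Each probe set was tested in limma, which borrows variance across the array. A probe set passed when its p, adjusted by Benjamini and Hochberg's method over all 22215, was under 0.05. Over the array 4.17% of probe sets passed. Without adjustment, 15.9% had a p under 0.05 (8.24% higher, 7.62% lower), and by an analysis of variance without shared variances 0.347% passed (0.149% higher, 0.198% lower). Of the 17 probe sets of the 10 genes, 6 were higher (35.3%). None of the 17 was lower in limma (2 when an unadjusted p under 0.05 was counted, 0 by analysis of variance). Among probe sets above the 95th percentile of those of other organs, 6 of the 15 of these genes were higher, against 3.35% of all such probe sets, and 0 lower, against 3.42%. The 4 SOD2 probe sets read 1 locus and are not independent, and they were taken after their values were seen. Among the 13 probe sets with 1 gene symbol, the ones first planned, 2 were higher (15.4%). With the brightest probe set taken for each gene, 3 of the 10 were higher. Shares over the array were not computed for either selection. Over all probe sets 1.99% were higher, and 3.35% of those above the 95th percentile. The median log2 fold change was 0.03 over the 17 and 0.01 over all probe sets, and the median size without its sign was 0.14 over the 17 and 0.08 over all. Groups did not overlap at 9 of the 17 probe sets, 7 higher and 2 lower, against 19.4% of all probe sets, 10.5% higher and 8.97% lower.

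CYBA, the membrane subunit shared by several NADPH oxidases, was the only member that takes part in making superoxide. Its probe set 203028_s_at read 9.52, 9.81 and 9.68 in SH3GL2 arrays, against 9.19, 9.08 and 9.03 in empty vector arrays. The lowest SH3GL2 array thus lay above the highest empty vector array. The means were 9.67 ± 0.15 in SH3GL2 cells and 9.10 ± 0.08 in empty vector cells (SD, n = 3 each). CYBA was higher by 0.57 on the log2 scale (95% interval 0.39 to 0.75, limma SE 0.08 and adjusted p = 0.00114). Without any 1 array the log2 fold change was 0.50 to 0.65 and the call held (adjusted p 0.00126 to 0.00975 from limma). It was lost in the analysis of variance (adjusted p = 0.154) and when signals were floored at 5.34, the median of the probe sets of other organs (adjusted p = 0.0779).

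No measured partner of p22phox passed the test. Of 20 probe sets for 11 other genes of NADPH oxidases, dual oxidases and their RAC subunits, 0 passed in either direction (1 without adjustment, 0 by analysis of variance), with log2 fold changes between -0.14 and 0.17. Over the array 4.17% of probe sets passed (15.9% without adjustment, 0.347% by analysis of variance). A count of 0 in this or the following short lists is near that share. CYBB, the catalytic subunit of the phagocyte oxidase, averaged 3.25 to 5.09 in SH3GL2 cells and 3.33 to 5.08 in empty vector cells over its 3 probe sets. NOX4, an oxidase found in many non-phagocytic cells, averaged 4.33 ± 0.21 in SH3GL2 cells and 4.33 ± 0.11 in empty vector cells (SD, n = 3 each). All of these lay below the median of the probe sets of other organs, so these signals say little about a change of either gene. Only the RAC genes lay above the 95th percentile of that set, on 4 of the 20 probe sets. RAC1, a GTPase that activates some NADPH oxidases, differed by 0.02 (95% interval -0.06 to 0.11) and 0.04 (95% interval -0.05 to 0.13) on its 2 probe sets, at signals above 13. The genes of this and the following lists that are named without passing the test were picked after their values were seen.

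SOD2, the manganese superoxide dismutase of mitochondria, gave the largest differences of the 10 genes. All 4 of its probe sets are annotated to SOD2 and to SOD2-OT1, a non-coding transcript of the same locus, and cannot separate them. The signal of 215078_at was 9.13, 8.66 and 9.27 in SH3GL2 arrays, against 7.30, 7.60 and 7.65 in empty vector arrays. The means of 9.02 ± 0.32 in SH3GL2 cells and 7.52 ± 0.19 in empty vector cells (SD, n = 3 each) differed by 1.50 on the log2 scale, a 2.83-fold increase (limma SE 0.14, adjusted p = 3.98e-05).

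The other SOD2 probe sets were brighter and moved less. On 215223_s_at the arrays read 12.94, 13.16 and 13.02 with SH3GL2, against 12.32, 12.43 and 12.35 with empty vector, an increase of 0.67 on the log2 scale (limma SE 0.06, adjusted p = 2.03e-05). On 216841_s_at they read 10.98, 10.97 and 11.04 with SH3GL2, against 10.26, 10.28 and 10.40 with empty vector. The 3 SH3GL2 arrays were close together there, with an SD of 0.04, and the increase was 0.68 (limma SE 0.06, adjusted p = 2.18e-05). On 221477_s_at they read 9.34, 9.02 and 9.23 with SH3GL2, against 8.63, 8.53 and 8.66 with empty vector. There the increase was 0.59 (limma SE 0.09, adjusted p = 0.00137). Groups did not overlap on any of the 4 probe sets.

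The size of the SOD2 increase depended on the probe set. The 95% interval of 215078_at, 1.20 to 1.81, lay above those of the other 3, which together ran from 0.40 to 0.81. Its signal minus the mean of the other 3 averaged -2.06 ± 0.30 in SH3GL2 cells and -2.91 ± 0.17 in empty vector cells (SD, n = 3 each), a difference of 0.85. A two-sided exact permutation test of this difference gave p = 0.1, which is the lowest value possible with 3 arrays in each group, and the comparison was chosen after its values were seen. The probe sets also ordered the SH3GL2 arrays differently. Replicate 2 was the lowest SH3GL2 array on 215078_at, 216841_s_at and 221477_s_at and the highest on 215223_s_at. Without any 1 array all 4 probe sets kept their calls (adjusted p 5.56e-07 to 0.0123 from limma). In the analysis of variance 216841_s_at alone passed (adjusted p = 0.0487, against 0.0834 to 0.162 for the others), and with the floor 215078_at and 221477_s_at did not pass (adjusted p = 0.0531 and 0.0812).

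SOD1, the copper and zinc enzyme of the cytosol, did not pass the test. Its arrays read 12.99, 13.10 and 13.01 with SH3GL2, against 12.97, 12.98 and 13.05 with empty vector, and the groups overlapped. The log2 fold change was 0.03 (95% interval -0.07 to 0.13, adjusted p = 0.81 from limma). CCS, the chaperone that loads copper into SOD1, differed by 0.17 (adjusted p = 0.314), and SOD3, the secreted dismutase, by -0.01 (adjusted p = 0.969) at means of 5.63 in SH3GL2 cells and 5.64 in empty vector cells.

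**Figure D2:**
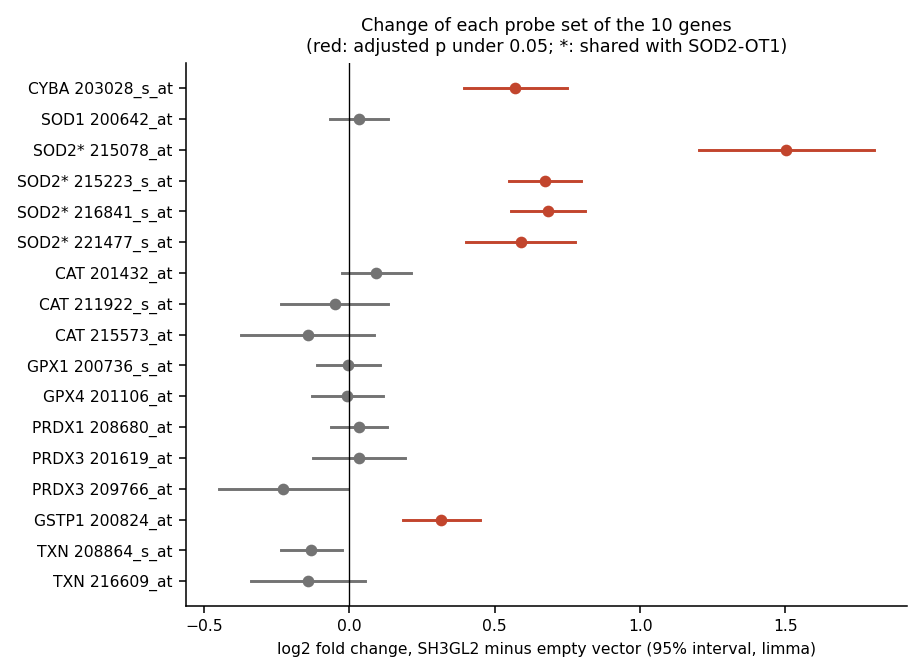
Log2 fold change (SH3GL2 minus empty vector) of each of the 17 probe sets, with lines for the 95% interval in limma and red for an adjusted p under 0.05. SOD2 probe set 215078_at stands at 1.50, the other 3 SOD2 probe sets and CYBA at 0.57 to 0.68 and GSTP1 at 0.32, while the intervals of 9 of the other 11 include 0.

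Catalase breaks hydrogen peroxide down to water and oxygen, mainly in peroxisomes. On its brightest probe set, 201432_at, the CAT signal was 10.59, 10.64 and 10.67 in SH3GL2 arrays, against 10.51, 10.54 and 10.57 in empty vector arrays. These groups lay next to each other without overlap, and the difference of 0.09 (95% interval -0.03 to 0.21) did not pass (adjusted p = 0.474 from limma). The other CAT probe sets differed by -0.05 and -0.14, the last at 3.67 ± 0.05 in SH3GL2 cells and 3.81 ± 0.19 in empty vector cells (SD, n = 3 each), below the median of the probe sets of other organs.

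The glutathione peroxidases GPX1, of cytosol and mitochondria, and GPX4, which reduces lipid peroxides in membranes, were level. GPX1 averaged 12.34 ± 0.05 in SH3GL2 cells and 12.35 ± 0.07 in empty vector cells, and GPX4 averaged 12.17 ± 0.09 in SH3GL2 cells and 12.17 ± 0.06 in empty vector cells (SD, n = 3 each). The 95% intervals of the differences were -0.11 to 0.11 for GPX1 and -0.13 to 0.11 for GPX4. Of 6 probe sets for the further glutathione peroxidase genes GPX2, GPX3, GPX5 and GPX7, 0 passed (0 without adjustment, 0 by analysis of variance). None of the 6 lay above the 95th percentile of the probe sets of other organs.

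PRDX1, the abundant peroxiredoxin of the cytosol, averaged 13.55 ± 0.07 in SH3GL2 cells and 13.52 ± 0.03 in empty vector cells (SD, n = 3 each; 95% interval of the difference -0.06 to 0.13). PRDX3, the peroxiredoxin of mitochondria, shares its compartment with SOD2. On its brighter probe set it read 11.65, 11.50 and 11.50 in SH3GL2 arrays, against 11.38, 11.50 and 11.67 in empty vector arrays, and the SH3GL2 values lay inside the range of the empty vector values. Its dim probe set 209766_at differed by -0.23 without overlap (adjusted p = 0.30 from limma), at means of 5.85 in SH3GL2 cells and 6.08 in empty vector cells that lay below the 95th percentile of the probe sets of other organs. Of 7 probe sets for PRDX2, PRDX4 and PRDX6, 0 passed (2 without adjustment, 0 by analysis of variance). PRDX2, a further cytosolic peroxiredoxin, differed by 0.18 on its brightest probe set (95% interval 0.05 to 0.30, adjusted p = 0.137). That probe set passed without SH3GL2 replicate 1 (0.24, adjusted p = 0.0274). The other PRDX2 probe sets differed by 0.10, 0.02 and -0.09.

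Thioredoxin, the small protein that returns oxidized peroxiredoxins to their active state, did not pass the test in either direction. On 208864_s_at TXN read 12.90, 12.94 and 12.89 in SH3GL2 arrays, against 12.96, 13.04 and 13.12 in empty vector arrays, without overlap. The log2 fold change of -0.13 (95% interval -0.23 to -0.03) had an unadjusted p of 0.018 in limma and did not pass after adjustment (adjusted p = 0.182). The other TXN probe set differed by -0.14 (adjusted p = 0.509). TXNIP, the protein that binds and inhibits thioredoxin, had log2 fold changes of -0.32, -0.31 and -0.19 on its 3 probe sets and did not pass (adjusted p = 0.115, 0.134 and 0.353). SH3GL2 replicate 2 was the lowest of the 6 arrays on all 3, and empty vector replicate 2 was the lowest of its group on all 3. TXNRD1, the cytosolic thioredoxin reductase, differed by 0.01 (95% interval -0.08 to 0.10).

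GSTP1 was the third gene with a higher signal. Its arrays read 11.90, 12.12 and 12.02 with SH3GL2, against 11.77, 11.68 and 11.64 with empty vector, so that the groups lay close together without overlap. The means of 12.01 ± 0.11 in SH3GL2 cells and 11.70 ± 0.07 in empty vector cells (SD, n = 3 each) differed by 0.32 on the log2 scale (95% interval 0.18 to 0.45, limma SE 0.06 and adjusted p = 0.0101). This call was close to the threshold. It was lost without SH3GL2 replicate 3 (adjusted p = 0.0577), without empty vector replicate 2 (adjusted p = 0.0531), without empty vector replicate 3 (adjusted p = 0.0525), without an intensity trend in the test (adjusted p = 0.0838), with the floor (adjusted p = 0.148) and in the analysis of variance (adjusted p = 0.239). The log2 fold change stayed between 0.26 and 0.37 throughout.

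The glutathione system around GSTP1 showed no further call. Of 17 probe sets for 14 other glutathione transferase genes, 0 passed (1 without adjustment, 0 by analysis of variance). That one was MGST2, a microsomal transferase, which read 8.97, 9.30 and 9.16 in SH3GL2 arrays, against 8.91, 8.87 and 8.82 in empty vector arrays (log2 fold change 0.28, adjusted p = 0.102 from limma). It passed without SH3GL2 replicate 1 (0.36, adjusted p = 0.031). Of 12 probe sets for 7 genes of glutathione synthesis and reduction, 0 passed (0 without adjustment, 0 by analysis of variance), though all 12 lay above the 95th percentile of the probe sets of other organs. GCLC, the catalytic subunit of the first enzyme of glutathione synthesis, differed by 0.09 and 0.16 on its 2 probe sets, and GCLM, its modifier subunit, by -0.11. SLC7A11, the cystine importer that feeds this synthesis, differed by 0.01 to 0.15 on its 3 probe sets.

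**Figure D3:**
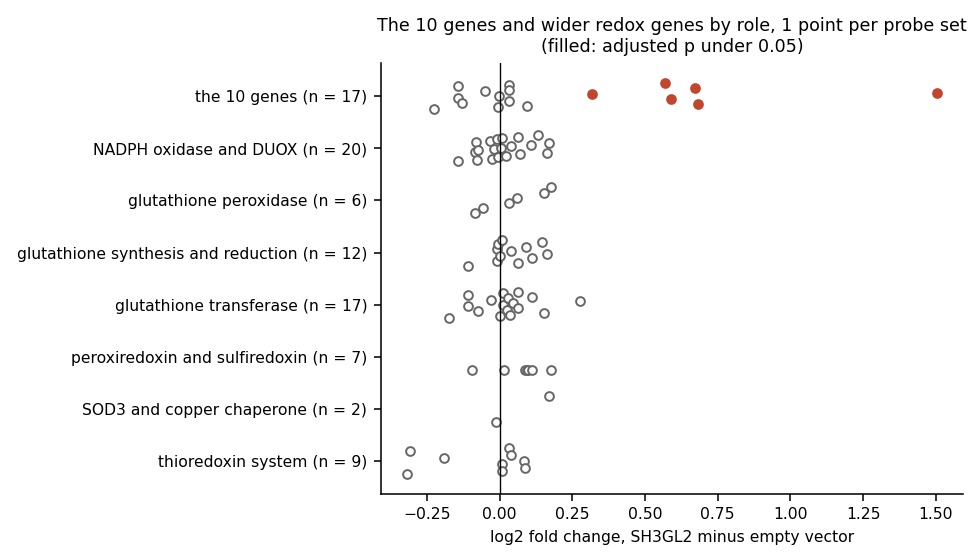
Log2 fold change (SH3GL2 minus empty vector) of the 17 probe sets of the 10 genes (top row) and of 73 probe sets of 46 further redox genes grouped by role, with 1 point per probe set and filled points for an adjusted p under 0.05. The 6 filled points lie at 0.32 to 1.50, and the 73 further probe sets lie between -0.32 and 0.28.

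Over all of these further genes, 46 of 53 listed had a probe set of their own, and of their 73 probe sets 0 were higher and 0 lower in limma (5 higher and 2 lower without adjustment, 0 by analysis of variance). The shares over the array were 1.99% higher and 2.18% lower in limma, 8.24% and 7.62% without adjustment and 0.149% and 0.198% by analysis of variance. Their median log2 fold change was 0.02, against 0.01 over all probe sets. Of the 73, 40 lay above the 95th percentile of the probe sets of other organs. Those below it say little about a change.

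The arrays did not rank alike for all members. SH3GL2 replicate 2 was alone the highest SH3GL2 array on 8 of the 17 probe sets, CYBA, GSTP1, SOD1 and PRDX1 among them, and alone the lowest on 5. SH3GL2 replicate 1 was alone the lowest on 10. Similarity to 215223_s_at of SOD2 was ranked over the 6 arrays among 9874 probe sets with 1 gene symbol. The mean of each over all arrays lay above the 95th percentile. The probe sets most like 215223_s_at were those of S100A2 (Pearson r = 0.9982), ARAP3 (0.9976) and AKR1C3 (0.9974). For CYBA they were NCBP2 (0.9952), PSMD2 (0.9949) and PJA1 (0.9949), and for GSTP1 they were SF3B2 (0.999), NCBP2 (0.9974) and THADA (0.9956). These correlations rest on 6 arrays in 2 groups, which share their labels and processing, and describe only the similarity of the patterns.

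**Figure D4:**
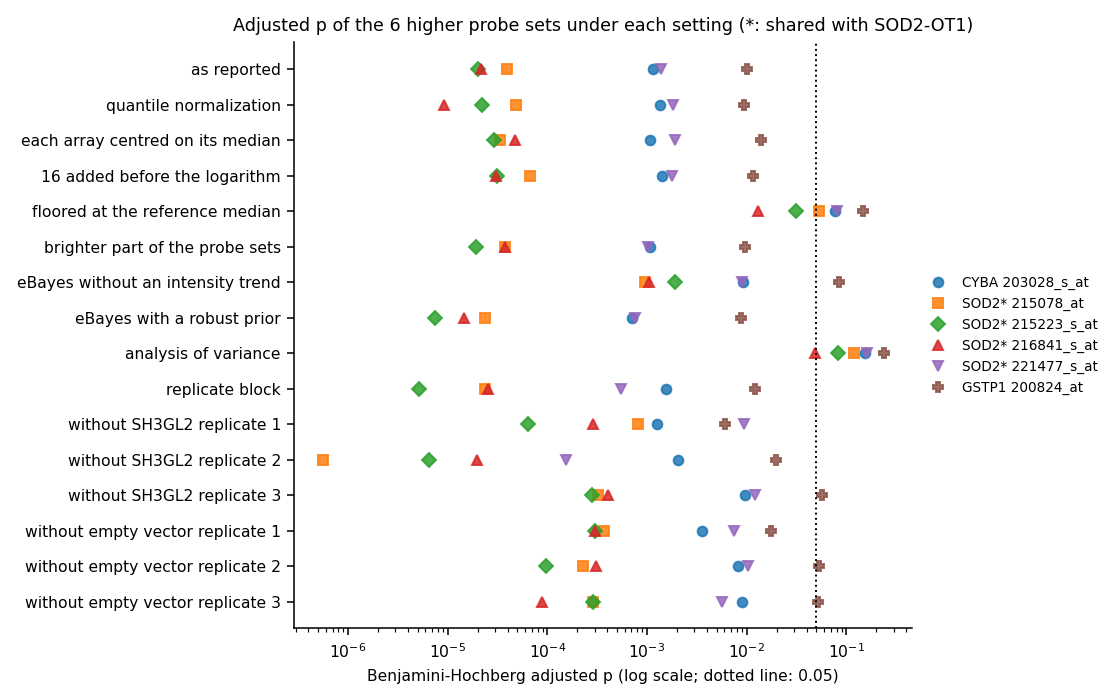
Adjusted p (log axis, dotted line at 0.05) of the 6 higher probe sets as reported and under each alternative. The 3 SOD2 probe sets other than 221477_s_at lie left of CYBA and GSTP1 in all settings, GSTP1 crosses the line in 6 of them, and all 6 points sit farthest right by analysis of variance.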

How the data were processed

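RNA of SUM-159 cells, 3 SH3GL2 and 3 empty vector samples, was hybridized to Affymetrix arrays and read with GCOS software. The authors deposited log2 signals, for which MAS5 is the only software in the submitters' processing notes, with its version not given. How the arrays were scaled is not given in the sources used here. The values were used as deposited. Of 22277 probe sets, 62 controls were left out. By the platform annotation 19064 probe sets had a single gene symbol, while 1043 carried several and 2108 carried none. Single-symbol probe sets were to be used, and since SOD2 had none, its 4 shared ones were taken after their values were seen.

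Groups were taken from the sample titles and compared with a linear model in limma 3.58.1 under R 4.3.3, with trended empirical Bayes variances and two-sided tests. The fit was tested on simulated data first. Errors of means are SD over 3 arrays. The number of arrays limits the precision. All 10 genes and SH3GL2 were named, together with SPANXB1 (a gene the study followed), further redox genes that passed (none did) and, for the 3 members with the smallest adjusted p, the 3 best correlated genes. Members, lists and tests were chosen with earlier results of these data known. Residuals of arrays with the same replicate number correlated at -0.01, 0.13 and 0.15. The numbers were not taken as pairs, though 3 arrays per group cannot settle this. Alternatives were other normalizations, an offset of 16, a floor, a filter, other variance priors, an analysis of variance of each probe set (the methods name this kind of test among others for the study, and none for the arrays), a replicate block, each array left out and an adjusted p under 0.01. Figures were drawn with matplotlib 3.10.9.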

Additional observations from a re-analysis of the deposited data

How the results depend on the processing

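All 6 higher probe sets of the 10 genes kept their direction under all 16 alternatives and lost their call in 14 of 96 values. Probe sets that did not pass could change sign, as GPX1 did (log2 fold change -0.04 to 0.03). The 6 higher probe sets were 2 with signals floored at the median of those of other organs (0.581% of all probe sets higher). In the analysis of variance 1 was higher (0.149% of all). With single-symbol probe sets only, as first planned, 2 of the 13 were higher (15.4%), and no share over the array was computed. The 4 shared SOD2 probe sets were added after their values were seen. Without any 1 array 5 to 6 were higher (0.828% to 1.69% of all), against 1.99% of all as reported. The floor changed none of the values of these 6, the lowest of which was 7.30 against a floor of 5.34. It set 5496 probe sets to one constant value, and the prior degrees of freedom in limma were 0.83 with it and 8.61 without it. Of the further redox probe sets, 0 to 2 were higher without any 1 array, MGST2 and PRDX2 passing without SH3GL2 replicate 1. With a replicate block the 6 higher probe sets were again 6 (2.28% of all), and 2 further redox probe sets were lower (2.58% of all), both of TXNIP (-0.32 and -0.31, adjusted p = 0.00561 and 0.0125 in limma). Residuals of arrays with the same number correlated at -0.01, 0.13 and 0.15. With 3 arrays per group these values cannot settle whether the numbers mark a shared batch. Signal over background limits the rest: 50.8% of all probe sets lay above the 95th percentile of the probe sets of other organs.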
